A study of Mus musculus with 9 samples.

Results

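Emp1 and its 3 relatives Emp2, Emp3 and Pmp22, which form the PMP22 family of small membrane proteins, were followed in macrophages sorted from the livers of wild-type mice. The 4 genes were taken from the expression table by symbol, 4 of 24312 genes. The family was chosen by the rise of the FPKM values of Emp1 with the diet in these same libraries, so the values of the 4 members on the diet against control are given as a description, with no test. Tests of diet against control are given for genes outside the family, from lists that were also chosen with earlier results of these data known. Macrophages were sorted as Ly6C-low and F4/80-positive cells from wild-type mice on a normal diet (ND), and from wild-type mice after 7 weeks (7w) or 10 weeks (10w) of CDA-HFD, a high-fat diet without choline in which amino acids stand in for protein, and which leads to steatohepatitis and fibrosis. Libraries, 3 in each group, are called by their group and replicate number (7w 1 and so on). For the feeding, the study's methods give male mice of 6 to 12 weeks of age. The gate takes resident Kupffer cells and macrophages derived from monocytes alike, since Tim4, which separates them, is not named in the gate of these samples. Levels are in FPKM (fragments scaled to transcript length and to the mapped reads of the library), which is per length. Levels of different genes are set side by side on this scale, within the limit that duplicate removal sets for abundant genes.

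The proteins of this family span the plasma membrane 4 times and carry short extracellular loops, a build they share with the claudins of tight junctions. PMP22, peripheral myelin protein 22, is best known from the compact myelin of Schwann cells, and a change in its gene dosage causes inherited neuropathy in humans. EMP1, EMP2 and EMP3, the epithelial membrane proteins, are found in many tissues, where they have been tied to adhesion, migration and growth. In other cells, members of the family bind the ATP-gated channel P2X7, and EMP2 affects integrins and caveolin at the surface. EMP3 is also found in leukocytes.

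The members lie on 4 different chromosomes, all protein coding and none overlapping another annotated gene (GRCm38, GENCODE M21). Emp1 (ENSMUSG00000030208.15) lies at chr6:135362545-135383173 on the plus strand and Pmp22 (ENSMUSG00000018217.12) at chr11:63128982-63159547 on the plus strand. Emp3 (ENSMUSG00000040212.12) lies at chr7:45918023-45921404 and Emp2 (ENSMUSG00000022505.9) at chr16:10281749-10313968, both on the minus strand. The longest coding transcript holds 2911 bases for Emp1, 3440 for Emp2, 784 for Emp3 and 1822 for Pmp22. Reads could be told apart from those of other genes over nearly all of their length. No word of 50 bases in Emp3 or Pmp22 transcripts occurred in another gene, against 7 of 5914 words in Emp1 and 113 of 8571 in Emp2.

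The bases in front of the first start site of Emp1 and Pmp22 in RefSeq (GRCm38.p6) are shown because these 2 genes moved in opposite directions with the diet. Bases annotated as exon were trimmed off. Capitals mark a match to the letters TGANTCA, which AP-1 factors (Fos and Jun dimers) are known to bind.
Emp1, chr6:135362708-135362903, plus strand: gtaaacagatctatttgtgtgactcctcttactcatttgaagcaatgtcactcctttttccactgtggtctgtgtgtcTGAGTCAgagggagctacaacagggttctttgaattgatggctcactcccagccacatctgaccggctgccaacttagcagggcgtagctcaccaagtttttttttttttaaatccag
Pmp22, chr11:63128732-63128981, plus strand: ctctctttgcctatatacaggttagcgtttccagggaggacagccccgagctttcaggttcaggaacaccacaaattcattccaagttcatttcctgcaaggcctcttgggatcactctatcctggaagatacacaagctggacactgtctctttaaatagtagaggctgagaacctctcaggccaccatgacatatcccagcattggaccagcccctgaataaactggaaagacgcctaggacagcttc
The match in Emp1 lies 139 to 145 bases before the start at 135362931. This window is inside the annotated span of the gene, which begins further upstream in GENCODE M21, at 135362545. On both strands of the 250 bases before each start site, 6 motifs were searched in 9 windows of the 4 genes. These were TGANTCA (AP-1), GCGNGGGCG (EGR), CACGTG (E-box), GAGGAAGT (PU.1) and TTGCNNAA (C/EBP), and the consensus of NF-kB. The letters of these motifs do not contain one another. Only this 1 window, of the 2 windows of Emp1, held a match, while 6.75% of 32851 such windows of all genes held the AP-1 letters. For the other motifs the share of all windows was 4.7% for EGR, 6.02% for E-box, 2.44% for PU.1, 9.56% for C/EBP and 1.41% for NF-kB. A match describes the letters only, and no match says no more than that these letters are not in these windows.

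The 9 libraries held an estimated 5431884 to 6183934 reads each, and 10990 to 11273 genes reached 1 FPKM in a library. The labelled cell type was checked on its markers. All 6 macrophage markers were tested. Their summed level was 1356 to 1427 FPKM in ND, 1247 to 1268 FPKM at 7 weeks and 1167 to 1229 FPKM at 10 weeks. Against ND, 3 of the 6 were called lower at 7 weeks and 4 at 10 weeks, beside 22.4% and 20.6% of all tested genes. In the diet contrasts 43.7% of 11783 tested genes were called at 7 weeks against ND and 39.9% at 10 weeks against ND by limma, at a Benjamini-Hochberg adjusted p under 0.05. Between 10 and 7 weeks 0.127% were called, 15 genes. The macrophages thus differed widely by diet, and few genes were called by time. An unadjusted limma p under 0.05 between 10 and 7 weeks was reached by 15.5% of tested genes. With 3 libraries in each group, few calls do not show that the time points were alike. The values of the family below stand in that setting.

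Emp1 was listed at 0 in ND 1, ND 2 and ND 3, and was well expressed in every CDA-HFD library. Its level was 64.1, 48.2 and 59.0 FPKM at 7 weeks (57.1 ± 8.11, SD, n = 3) and 60.8, 47.9 and 50.4 FPKM at 10 weeks (53.0 ± 6.85, n = 3). The lowest CDA-HFD library thus stood far above every ND library, and the 2 time points overlapped. By the estimated depth these levels rest on 746 to 1019 reads per CDA-HFD library, and 1 read of Emp1 was worth 0.0596 to 0.0679 FPKM. A count of 3 reads, the limit that a count of 0 allows, would correspond to 0.179 to 0.204 FPKM, counting error only. Such tables can also hold a 0 where an estimate failed. Gapdh, a glycolytic enzyme used by all cells, was listed at 0.697, 1.18 and 1.05 FPKM in ND. It was also low in CDA-HFD, at 2.27 to 11.1 FPKM, so its low values were not limited to ND. Emp1 is given only as listed at 0 in ND, with no fold. In CDA-HFD Emp1 stood above 73.4% to 80.4% of tested genes in a library.

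Pmp22 took the opposite course. Its level was 151, 138 and 147 FPKM in ND (146 ± 6.63, n = 3). It was 49.2, 33.4 and 52.6 FPKM at 7 weeks (45.1 ± 10.2, n = 3) and 35.8, 39.6 and 53.6 FPKM at 10 weeks (43.0 ± 9.36, n = 3). Every CDA-HFD library was below every ND library, and the time points overlapped. The fitted log2 difference from ND was −1.69 at 7 weeks (SE 0.18) and −1.76 at 10 weeks (SE 0.18), which left 0.309 and 0.296 of the ND level on the log2(FPKM + 1) scale. Pmp22 moved from a place above 94.9% to 95.9% of tested genes in ND to one above 65.4% to 76.1% in CDA-HFD.

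Emp3, the shortest member and the most abundant one in all 9 libraries, was higher in CDA-HFD by a small amount. The ND libraries held 197, 194 and 202 FPKM (197 ± 3.98, n = 3). The level was 260, 246 and 232 FPKM at 7 weeks (246 ± 13.9, n = 3) and 229, 237 and 231 FPKM at 10 weeks (232 ± 4.54, n = 3). Again no CDA-HFD library overlapped the ND libraries. The log2 difference from ND was 0.31 at 7 weeks (SE 0.04, 1.24-fold) and 0.23 at 10 weeks (SE 0.04, 1.18-fold). Emp3 was above 97.9% to 99.2% of tested genes in every library. Its reads filled 0.536 to 0.576 of the level that 1 read per start position and strand would allow in ND and 0.655 to 0.707 in CDA-HFD, and removal of duplicate reads would compress differences at such levels. With a correction for it, chosen after seeing the data, the difference was 0.53 at 7 weeks and 0.47 at 10 weeks.

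Emp2 was at the edge of detection. It was listed at 0, 1.06 and 0.113 FPKM in ND, 0.900, 0.108 and 0.272 FPKM at 7 weeks, and 0 in all 3 libraries at 10 weeks. The values above 0 correspond to an estimated 18.9 and 1.99 reads in ND and to 15.9, 1.99 and 4.97 reads at 7 weeks. ND and CDA-HFD libraries overlapped. The SD was larger than the mean in ND (0.390 ± 0.580 FPKM, n = 3) and close to it at 7 weeks (0.426 ± 0.418 FPKM, n = 3), and Emp2 did not pass the filter of at least 1 FPKM in at least 3 libraries.

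**Figure D1:**
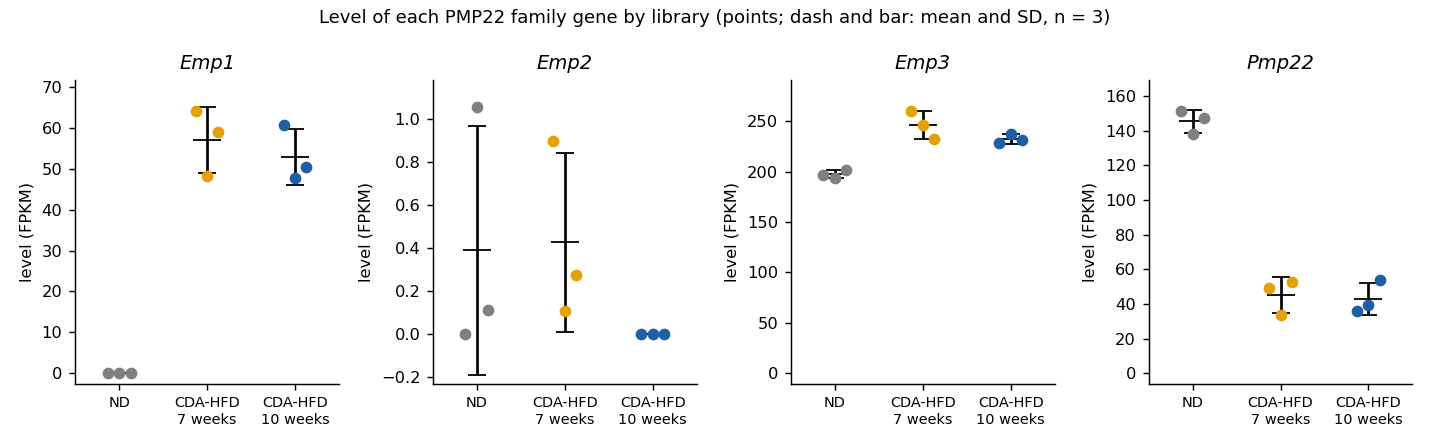
Level of Emp1, Emp2, Emp3 and Pmp22 in FPKM in each library of the ND, 7-week and 10-week CDA-HFD groups. Points are libraries, and the dash and bar give the mean and SD (n = 3). Each panel has its own scale: Emp1 lies at 0 in ND and at 47.9 to 64.1 FPKM in CDA-HFD, Pmp22 goes from a mean of 146 FPKM to 45.1 and 43.0 FPKM, Emp3 stays between 194 and 260 FPKM, and Emp2 does not exceed 1.06 FPKM.

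In each diet contrast, 2 of the 4 members (Emp1 and Emp3) were higher than ND with no overlap between libraries, as were 26.5% of tested genes at 7 weeks and 24.1% at 10 weeks. Pmp22 was lower with no overlap, as were 28.3% of tested genes at 7 weeks and 26.6% at 10 weeks. The family was chosen with this contrast in view, and nothing is read from these counts. Both contrasts share the ND libraries.

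With these courses the make-up of the family differed between the diets. The 4 genes together held 343 ± 8.86 FPKM in ND, 349 ± 23.5 at 7 weeks and 328 ± 5.77 at 10 weeks (SD, n = 3 each). Pmp22 made up 42.4% ± 0.994 of that sum in ND, 12.9% ± 2.56 at 7 weeks and 13.1% ± 2.60 at 10 weeks. Emp1 went from 0% in ND to a mean of 16.3% at 7 weeks and 16.2% at 10 weeks. Emp3 held the largest share throughout, 57.5% ± 0.858 in ND, 70.7% ± 3.94 at 7 weeks and 70.8% ± 2.10 at 10 weeks. Emp3 exceeded Pmp22 by 1.30 to 1.40 times in the ND libraries and by 4.31 to 7.36 times in the CDA-HFD libraries. These values hold as deposited, with Emp3 closer to the limit of duplicate removal than Pmp22 and Emp1. With the correction for it, chosen after seeing the data, the sum was 475 ± 20.4 FPKM in ND, 528 ± 41.0 at 7 weeks and 504 ± 8.27 at 10 weeks, and Emp3 exceeded Pmp22 by 1.47 to 1.59 times in ND and 6.62 to 12.1 times in CDA-HFD. The corrected share of Emp1 averaged 11.8% at 7 weeks and 11.5% at 10 weeks. In CDA-HFD Emp1 and Pmp22 stood at like levels, with a ratio of Emp1 to Pmp22 from 0.941 in 10w 3 to 1.70 in 10w 1. The order of the group means was thus Emp3, Pmp22, Emp2, Emp1 in ND and Emp3, Emp1, Pmp22, Emp2 in CDA-HFD, and Emp1 and Pmp22 overlapped in their FPKM over libraries at both time points. In ND, Emp2 and Emp1 were both at 0 in ND 1.

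**Figure D2:**
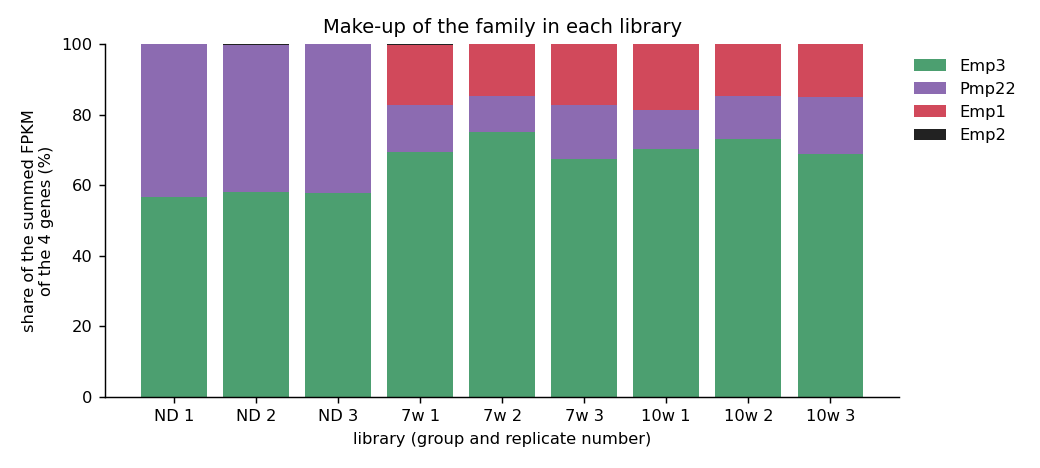
Share of Emp3, Pmp22, Emp1 and Emp2 in the summed FPKM of the 4 genes (percent, vertical axis) in each of the 9 libraries. Emp3 is the largest part of every bar, Pmp22 shrinks from a mean of 42.4% to 12.9% and 13.1%, and Emp1 appears only in the 6 CDA-HFD bars.

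The contrast of 10 with 7 weeks was not used to choose the family and was tested. None of the 3 members that passed the filter was called by limma, also not at an unadjusted p under 0.05, which 15.5% of all tested genes reached. For Emp1 the log2 difference was −0.10 (SE 0.17, 95% interval −0.47 to 0.27, limma adjusted p = 0.82). For Emp3 it was −0.08 (SE 0.04, interval −0.17 to 0.00328, limma adjusted p = 0.34, unadjusted p = 0.0582). For Pmp22 it was −0.06 (SE 0.18, interval −0.46 to 0.34, limma adjusted p = 0.909). The interval was narrow for Emp3 and wider for Emp1 and Pmp22, for which modest changes in either direction remain within it. Emp2 alone did not overlap between the time points, being lower at 10 weeks. This was also so for 10.8% of tested genes, a better expressed set that does not hold Emp2. At 7 weeks Emp2 rested on an estimated 1.99 to 15.9 reads a library, at the edge of detection. A two-sided exact permutation test of its FPKM gave p = 0.1, the smallest that 3 against 3 libraries allow, and a fit with no filter gave a log2 difference of −0.47 (interval −1.15 to 0.199, limma adjusted p = 0.556).

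**Figure D3:**
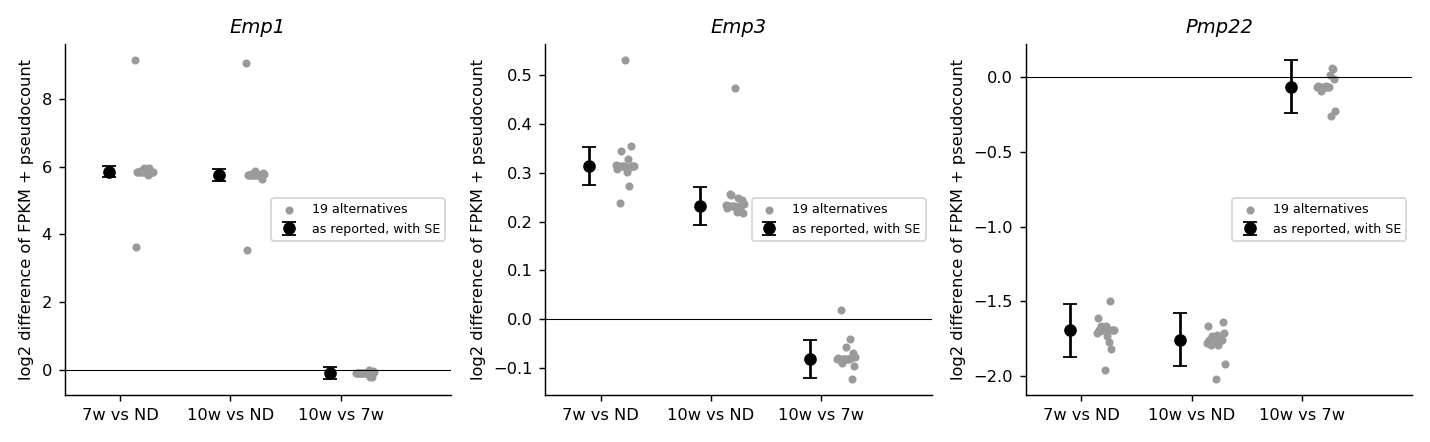
Log2 differences (vertical axis) of Emp1, Emp3 and Pmp22 for 7 weeks against ND, 10 weeks against ND and 10 against 7 weeks. Black points with bars are the values as reported with their SE, and grey points are 19 other ways of processing. The diet differences keep their sign in all grey points, and the time differences lie near 0. The size of the diet difference of Emp1, at 0 in ND, is set by the pseudocount and is no fold of its level.

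The genes whose levels were nearest to each member over the 9 libraries were found by the root mean square difference of log2(FPKM + 1), a description with no test. Of the 5 nearest to Emp1, 4 are given here, F13a1, the coagulation factor XIII A chain (0.317), the chitinase-like Chil3 (0.431), the angiogenic factor Vegfa (0.438) and the phosphatase Dusp5 (0.448). F13a1 averaged 0.133 FPKM in ND, 52.8 at 7 weeks and 52.0 at 10 weeks. F13a1 and Chil3 are on the list of monocyte markers used here. For Pmp22 the nearest were Smagp, a small adhesion glycoprotein (0.173), Mrc1, the mannose receptor of tissue macrophages (0.227), and 6330416G13Rik (0.273). Mrc1 averaged 152 FPKM in ND, 53.6 at 7 weeks and 42.4 at 10 weeks. For Emp3 they were Lgals3, which encodes galectin-3 (0.0415), the ribosomal protein gene Rps15 (0.0684) and the respiratory chain gene Uqcrq (0.0732). The level of Emp3 itself varied little between libraries, so small distances say little about a shared course.

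**Figure D4:**
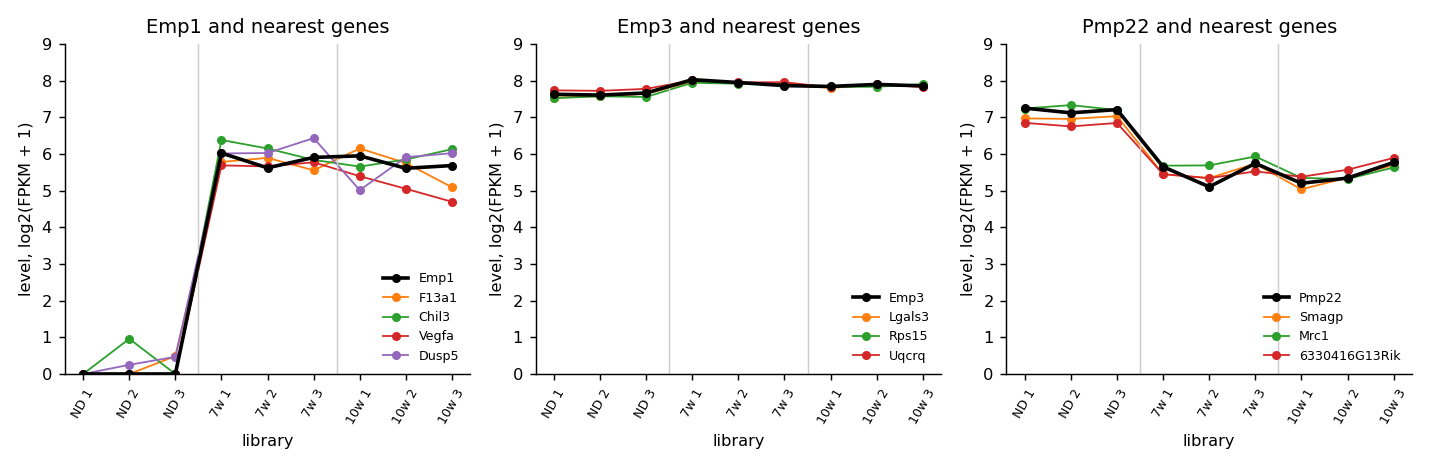
Level as log2(FPKM + 1) in each library for Emp1, Emp3 and Pmp22 (black) and the genes nearest to each in level (colours). Lines only join the values of a gene, since replicates have no order, and grey bars part the groups. Emp1 and the 4 genes shown beside it lie near 0 in ND and close together in CDA-HFD.

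Some other genes were listed at 0 in ND and had a clear level in CDA-HFD, the course for which Emp1 was chosen, and they are given as a description. Of 24312 genes, 9748 were listed at 0 in all ND libraries, and 95 of these passed the filter, which they could do through CDA-HFD alone. At 10 FPKM or more in all 6 CDA-HFD libraries were 5 of them, Mir1938, Emp1, Vegfa, AA467197 and the chemokine gene Cxcl3, in order of their mean level in CDA-HFD. Emp1 was the second of the 5, with a mean of 55.1 FPKM, and Vegfa was next with 42.0 FPKM. Emp1 varied less between the time points than Vegfa, which averaged 51.3 FPKM at 7 weeks and 32.7 FPKM at 10 weeks, though this difference between the genes was not tested.

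Genes around the members gave a mixed picture, and those at or near 0 in all libraries show no course. Of the 3 nearest genes on each side of Emp1, Gsg1 held 7.17, 6.18 and 5.91 FPKM in ND, 5.36, 3.76 and 2.93 at 7 weeks and 7.11, 2.83 and 4.32 at 10 weeks. Gsg1 was thus present where Emp1 was at 0, and its groups overlapped at 10 weeks. Pbp2, Grin2b, Gm8994 and E330021D16Rik stood at 0 to 0.357 FPKM in all libraries. Near Pmp22, Tvp23b averaged 44.7 FPKM in ND and 43.9 at both time points. Hs3st3b1, a heparan sulfate sulfotransferase gene 726245 bases from Pmp22, averaged 9.05 FPKM in ND, 1.23 at 7 weeks and 1.35 at 10 weeks, lower in every CDA-HFD library as Pmp22 was. Tekt3, a testis tektin gene on the other side, held 0.586 to 1.67 FPKM in ND and 0 to 0.21 FPKM in CDA-HFD, again lower where Pmp22 was lower. Tmem143, 610 bases from Emp3, averaged 5.33, 3.37 and 3.24 FPKM, so that Emp3 and its closest neighbour did not move the same way in their means.

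The listed genes of the wider superfamily, claudins and related 4-span proteins without the tetraspanins, were mostly at 0 or at low levels in these cells. Of 29 listed genes, 14 were at 0 in all 9 libraries, 22 were under 1 FPKM in all of them, and 4 were tested. Against ND, 1 of the 4 was called higher at 7 weeks, where 21.3% of all tested genes were called higher, and none lower. That gene was Cldnd1, a claudin-domain gene, with 45.0 ± 4.24 FPKM in ND, 55.1 ± 4.06 at 7 weeks and 51.4 ± 3.32 at 10 weeks (log2 difference at 7 weeks 0.29, SE 0.09, limma adjusted p = 0.0274). The call was lost without ND 1 (limma adjusted p = 0.116), 7w 1 (0.0941) or 7w 2 (0.0895), and without trend and robust (0.0536). At 10 weeks against ND and between the time points none was called by limma. The other 3 tested were Gsg1, the endothelial claudin Cldn5 and Nkg7, a granule protein of cytotoxic lymphocytes. The median log2 difference of the 4 was 0.35 at 7 weeks and 0.54 at 10 weeks against ND, beside −0.03 and −0.02 over all tested genes. These medians rest on few genes that did not move alike. At 10 weeks they ran from −0.43 (SE 0.30) for Gsg1 to 1.07 (SE 0.47) for Cldn5, so no shared rise is read from them. Beside the 29 listed genes, most of them under 1 FPKM, Emp3, Pmp22 and, in CDA-HFD, Emp1 were abundant. This does not extend to all 4-span proteins. The tetraspanin genes Cd9 and Cd63, not on this list, held 230 to 263 and 221 to 258 FPKM in CDA-HFD.

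Genes for proteins described as binding or signalling with the family in other cells moved in both directions. Of 13 listed genes, 11 were tested. At 7 weeks against ND 1 was higher and 3 were lower (all genes 21.3% and 22.4%), at 10 weeks against ND 4 were higher and 6 lower (19.3% and 20.6%), and between the time points none was called by limma. Without ND 2 or without 10w 2, the 10 called at 10 weeks were 6. The 1 called higher at 7 weeks was Itga6, and Itga6 and Cav1 were among the 4 at 10 weeks. Both reached 1 FPKM in 3 libraries only with CDA-HFD libraries, so their values are described with no test. The counts that hold them are not read against the shares of all genes. The median log2 difference of the 11 was 0.05 at 7 weeks and −0.13 at 10 weeks. Itga6, the laminin-binding integrin alpha 6, held 0.0299, 0.158 and 0.225 FPKM in ND, 10.2, 6.64 and 16.1 at 7 weeks and 17.1, 12.5 and 8.69 at 10 weeks. Like Emp1, Itga6 was near 0 in ND and present in all 6 CDA-HFD libraries. Its log2 difference of 3.33 at 7 weeks depends on the pseudocount, with 5.55 at 0.1 and 1.60 at 5. Ptk2, the focal adhesion kinase, fell from 27.2 ± 7.84 FPKM in ND to 2.86 ± 0.831 and 2.92 ± 1.77 (log2 difference at 7 weeks −2.85, SE 0.34, limma adjusted p = 3.07e-05). The kinase Src fell from 7.51 ± 0.588 to 2.55 ± 2.38 and 2.23 ± 0.748 FPKM (log2 difference at 7 weeks −1.46, SE 0.40, limma adjusted p = 0.0107). Cav1, which encodes caveolin-1, held 2.56, 0.853 and 0.786 FPKM in ND, 4.31, 6.07 and 0.909 at 7 weeks and 6.73, 3.80 and 3.79 at 10 weeks, so that ND and 7 weeks overlapped. P2rx7, the channel that the family binds in other cells, was abundant in all groups, with 59.4 ± 3.90 FPKM in ND, 61.9 ± 8.34 at 7 weeks and 73.2 ± 4.80 at 10 weeks. It was called higher at 10 weeks against ND (log2 difference 0.30, SE 0.10, limma adjusted p = 0.0266), a call that was lost without ND 3 (0.0963), 10w 1 (0.0547) or 10w 2 (0.0995), with no filter (0.0589) and without trend and robust (0.0743). The calls of Ptk2 and Src held under all 19 alternatives.

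Markers of several cell types moved with the diet in the same libraries as Emp1 and Pmp22, and their part in the values of the family was not tested. Over all tested genes 21.3% were called higher and 22.4% lower at 7 weeks against ND, and 19.3% and 20.6% at 10 weeks. In bulk samples, fewer cells of a type and less RNA per cell cannot be told apart. Kupffer cell markers, summed over 8 genes, held 2075 to 2204 FPKM in ND, 805 to 1036 after 7 weeks and 798 to 983 after 10 weeks of CDA-HFD, and 8 of 8 were called lower in both diet contrasts, as Pmp22 was lower. Lipid-associated macrophage markers held 261 to 297 FPKM in ND, 1560 to 1679 after 7 weeks and 1439 to 1510 after 10 weeks of CDA-HFD, with 8 of 8 higher. Both of these sets thus split the libraries by diet as Emp1 and Pmp22 did. Monocyte markers held 236 to 246, 428 to 512 and 504 to 550 FPKM, and 4 of 6 tested were higher at each time. The higher counts of the lipid-associated and monocyte sets are a description. In them Spp1, Gpnmb, Ly6c2, Chil3 and F13a1 reached 1 FPKM in 3 libraries only with CDA-HFD libraries. Plac8 was called lower at 7 weeks, with 213 to 226 FPKM in ND and 149 to 161 FPKM at 7 weeks, and no monocyte marker was called lower at 10 weeks. Ly6c2, the antigen that the gate was to hold low, was under 2 FPKM in every ND library and at 32.0 to 79.8 FPKM in CDA-HFD. Of 12 genes known to respond to cell dissociation, 10 were called higher at each time, and their sum was 944 to 1254 FPKM in ND, 1803 to 1990 after 7 weeks and 1835 to 1927 after 10 weeks of CDA-HFD. Fos and Jun, whose products form AP-1, are among these 12. Hepatocyte markers went down, from 507 to 779 FPKM in ND to 330 to 366 and 283 to 340 FPKM, with 7 of 8 called lower. Trf, the largest part of this sum, held 262 to 280 FPKM in ND and 207 to 244 FPKM in CDA-HFD. Alb fell further, from 45.8 to 91.9 FPKM in ND to 17.2 to 29.9 FPKM in CDA-HFD. B cell markers summed to 91.6 to 121 FPKM in ND and 71.6 to 100.4 FPKM in CDA-HFD, with 3 of 4 tested lower. The summed neutrophil markers overlapped between the diets, at 98.6 to 194 FPKM in ND and 135 to 277 FPKM in CDA-HFD, but single markers moved apart. S100a9 held 12.4 to 51.3 FPKM in ND and 0 to 3.07 FPKM in CDA-HFD. Mmp8 held 0.320 to 1.66 FPKM in ND and 10.5 to 24.1 FPKM in CDA-HFD. Of 5 tested, 1 was called higher and 1 lower at 7 weeks, and 2 and 1 at 10 weeks. Mmp8 and Retnlg reached 1 FPKM in 3 libraries only with CDA-HFD libraries, so these counts are a description.

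Markers of other cell types known to express members of the family were at unequal levels, and their part in the values of Emp1 and Pmp22 was not tested either. Of the Schwann cell markers reported here, Sox10 was at 0 in all 9 libraries and S100b was under 1 FPKM in all, while Pmp22 held 138 to 151 FPKM in ND. Mbp, another myelin gene, was higher where Pmp22 was lower, at 1.51 to 3.84 FPKM in ND and 26.5 to 40.4 FPKM in CDA-HFD. Of the 7 cholangiocyte markers, Cldn4 was at 0 and Krt19 and Sox9 were under 1 FPKM in all libraries, and the sum was 3.45 to 5.99, 2.72 to 6.73 and 6.80 to 15.2 FPKM. The 10 stellate cell and fibroblast markers summed to 4.05 to 8.85 FPKM in ND, 19.8 to 28.6 after 7 weeks and 12.5 to 33.0 after 10 weeks of CDA-HFD, with Col1a1, Lrat and Reln under 1 FPKM in all libraries. For this sum, as for Emp1, the CDA-HFD libraries all lay above those of ND, but its markers were mixed. Dcn, its largest part in CDA-HFD, held 7.36 to 16.6 FPKM there. Pdgfrb went the other way, at 1.92 to 5.84 FPKM in ND and 0 to 1.35 FPKM in CDA-HFD. Of 5 tested, 4 were called higher and 1 lower at 7 weeks, and 3 and 1 at 10 weeks. Dcn, Lum, Col3a1 and Acta2 reached 1 FPKM in 3 libraries only with CDA-HFD libraries, so these counts are a description. Sinusoidal endothelial markers summed to 151 to 183 FPKM in ND, 70.7 to 152 after 7 weeks and 72.1 to 194 after 10 weeks of CDA-HFD. This sum hides markers that moved apart. Stab2 held 49.0 to 53.6 FPKM in ND and 3.56 to 14.1 FPKM in CDA-HFD. Clec4g held 13.7 to 28.1 FPKM in ND and 34.2 to 90.1 FPKM in CDA-HFD. Of 8 tested, 2 were called higher and 2 lower in both diet contrasts. Kdr and Tek reached 1 FPKM in 3 libraries only with CDA-HFD libraries, so these counts are a description.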

How the data were processed

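RNA-seq values of 9 libraries of sorted mouse liver macrophages were used, 3 for each of 3 groups, with groups and replicate numbers taken from the labels, which call them biological replicates. The authors deposited a single table of FPKM values for all libraries, keyed by gene symbol. The authors sequenced single-end reads of 75 bases, and the submitters' processing notes name Trimmomatic (0.36), HISAT2 (2.2.1), featureCounts (2.0.1) and build GRCm38 (mm10). The methods name Picard for duplicate removal, and Cufflinks or featureCounts for the counts per gene, without saying which served these samples. They speak of TPM, but column sums of 444816 to 458788 differ between libraries, so the values were treated as FPKM.

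Of 24776 entries 1 was incomplete and left out, and entries sharing a symbol were summed, giving 24312 genes. Depth was estimated from the steps of low values in single-transcript genes, assuming fragments of 200 bases. Of these values 70.5% to 75.9% lay within 0.1 read of a whole number. On this estimate, duplicate removal would limit long genes to 323 to 368 FPKM.

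limma (3.58.1, R 4.3.3; trend and robust) was run on log2(FPKM + 1) with all 9 libraries and 3 group means over the 11783 genes that reached 1 FPKM in 3 or more libraries. Benjamini-Hochberg adjustment ran over all of them. The pseudocount of 1 understates changes of low genes. Errors after ± are SDs, n is the number of libraries, and SE and 95% intervals are from limma. The code was tested on simulated data. The members and all lists were chosen with earlier results of these data known. Named genes were the members, up to 4 called genes a list by size of difference, the 5 or 3 genes nearest to a member in level, the genes listed at 0 in ND and at 10 FPKM or more in CDA-HFD, and the 3 neighbours on each side. P2rx7 and other marker genes were named beyond that, after their values were seen. Some genes that these rules or lists hold are not reported here. Alternatives were other pseudocounts, filters, normalizations, entry handling, a replicate block and leaving out each library.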

Additional observations from a re-analysis of the deposited data

How the results depend on the processing

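The diet differences of Emp1 and Emp3 were positive, and that of Pmp22 negative, under all 19 alternatives tried. Emp1, at 0 in ND, moved with the pseudocount, to 9.15 (7 weeks) and 9.05 (10 weeks) on the log2 scale with 0.1 and to 3.63 and 3.53 with 5. Quantile normalization gave Emp3 0.24 at 7 weeks and turned its difference between 10 and 7 weeks to 0.0187 (limma adjusted p = 0.858). The correction for duplicate removal, chosen after seeing the data, gave Emp3 0.53 and 0.47 and Pmp22 −1.96 at 7 weeks. The difference of Pmp22 between 10 and 7 weeks ran from −0.26 to 0.060 when 1 library was left out. It was above 0 without 7w 1, 7w 3 or 10w 1. Over the alternatives the limma adjusted p between 10 and 7 weeks was 0.674 to 0.986 for Emp1, 0.178 to 0.858 for Emp3 and 0.466 to 0.988 for Pmp22.

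The 15 genes called between 10 and 7 weeks were 5 with a pseudocount of 0.1, 6 without the filter, 2 without trend and robust, and 2 to 18 with 1 library left out, lowest without 7w 2 or 10w 2. With no filter the fit used trend without robust. The 1 gene of the wider superfamily called at 7 weeks against ND was 0 without trend and robust and 0 to 1 with 1 library left out, and the count of 0 at 10 weeks against ND became 0 to 1. The 10 partner genes called at 10 weeks against ND were 6 without trend and robust and 6 to 10 with 1 library left out. Replicate numbers did not pair the libraries, with correlations of deviations from −0.06 to 0.09. With a replicate block 5126 genes were called at 7 weeks against ND, 4589 at 10 weeks against ND and 17 between them, against 5150, 4706 and 15 without. Depth limits Emp2, whose values rest on fewer than 20 reads a library.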
